A study of Homo sapiens with 18 samples.

Results

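The data cover 10 human genes of the oxidative defence of the cell in keratinocytes whose TEAD transcription factors were blocked. They are the aldo-keto reductase genes AKR1C1, AKR1C2, AKR1C3 and AKR1B10, together with NQO1, HMOX1, GCLC, GCLM, TXNRD1 and SRXN1, taken by symbol from the 15896 gene symbols of the deposited table. The list was chosen by the TMM values of AKR1C2, which were higher early under TEAD inhibition, so the response of that gene is given as a description without a test, and the question was whether other genes of the NRF2 type moved with it. The RNA came from N/TERT2G, a keratinocyte line of human origin that is immortalized, grown in EPILIFE medium with a keratinocyte growth supplement. Every culture received an adenovirus, added 1 day after plating at a multiplicity of infection of 25. The control virus, Ad-GFP, carried green fluorescent protein, and Ad-TEADi carried TEADi, a protein that joins green fluorescent protein to the parts of VGLL4, YAP1 and TAZ that bind TEAD and so keeps YAP1 and TAZ away from it. Cells were harvested 12, 24 and 48 h after transduction, so that 18 libraries fell into 6 groups of 3. No group without virus was analysed here, and the labels do not say whether the 3 libraries of a group came from separate cultures, so p-values measure the spread between these libraries.

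NRF2, encoded by NFE2L2, is a transcription factor that KEAP1 marks for destruction in unstressed cells. Electrophiles and oxidants stop KEAP1 from doing so, and NRF2 then pairs with a small MAF protein on antioxidant response elements, which BACH1 can occupy as a repressor. The targets make glutathione, reduce quinones, thioredoxin and peroxiredoxins, and degrade heme, and in the epidermis the pathway is known for protecting keratinocytes from light, oxygen and chemicals. AKR1C genes are among the human genes most readily raised by NRF2, and they also act on steroid hormones and prostaglandins.

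Levels are the deposited TMM normalized values in CPM, reads scaled to the size of each library, and the depth recovered from them was 14.2 to 26.7 M reads per library. Each change is Ad-TEADi over Ad-GFP as the log2 ratio of CPM plus 1, given with the standard error from limma, and its p-value was adjusted across the 13417 genes tested. Where levels are low, such a change understates the ratio of the levels. A gene passed the test at an adjusted p under 0.05 together with a change of at least 1.5-fold. The TEAD target CTGF, a matricellular protein gene that reports YAP1/TAZ activity, fell by 1.81 ± 0.15 on the log2 scale at 24 h (adjusted p = 2.3e-06) and by 2.97 ± 0.15 at 48 h (adjusted p = 1.4e-09). Ad-TEADi replicate 1 at 24 h kept 23.9 CPM of CTGF, against 14.3 and 13.6 in the other replicates of its group, so it lay nearest to the controls. All 6 keratinocyte markers were present. So were 4 of 6 fibroblast markers, 1 of 5 melanocyte markers and 2 of 6 immune and endothelial markers, which are described further below. The fibroblast genes PDGFRB and LUM and the leukocyte genes PTPRC and CD3E were not in the analysed table. In bulk RNA, fewer cells of a type and less RNA per cell cannot be told apart.

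AKR1C2 encodes a hydroxysteroid dehydrogenase that inactivates dihydrotestosterone, and lies at chr10:5029967-5060223 on the minus strand (GRCh37). With Ad-GFP it was at 3.28, 3.08 and 3.73 CPM at 12 h, at 3.93, 5.14 and 3.97 CPM at 24 h, and at 8.73, 9.24 and 7.95 CPM at 48 h. With Ad-TEADi it was at 4.26, 4.22 and 4.28 CPM at 12 h, at 9.14, 16.6 and 15.8 CPM at 24 h, and at 42.8, 40.8 and 51.6 CPM at 48 h. The Ad-TEADi libraries were higher than their controls at each time with no overlap, and the lowest of them at 24 h was replicate 1. The same held for 10.9% of all tested genes at 12 h, 17.7% at 24 h and 26.8% at 48 h. The ratio of mean CPM was 1.27 at 12 h, 3.18 at 24 h and 5.22 at 48 h, which on the log2 scale with the pseudocount came to 0.27 ± 0.15, 1.44 ± 0.15 and 2.25 ± 0.15. AKR1C2 was also higher at 48 h than at 12 h in the control cells, by 1.14 ± 0.15 on that scale, so the control at 48 h stood at about the level that Ad-TEADi replicate 1 had at 24 h.

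The other AKR1C genes need a word on their sequence first, because reads of near-identical genes can be assigned to either copy. Over their coding sequences of 969 bases, AKR1C1 and AKR1C2 were 98.0% identical, AKR1C1 and AKR1C3 91.4%, and AKR1C2 and AKR1C3 91.0%. Of all stretches of 50 bases in the AKR1C1 coding sequence, 51.6% occurred letter for letter in AKR1C2, as against 14.7% in AKR1C3. AKR1B10 was only 56.7% identical to AKR1C2 and shared no such stretch. The first 90 coding bases of each, from the GRCh37 transcripts, are shown because they make the sharing visible, with capitals where a base differs from AKR1C2.
AKR1C2 (coding span chr10:5032191-5046027, minus strand): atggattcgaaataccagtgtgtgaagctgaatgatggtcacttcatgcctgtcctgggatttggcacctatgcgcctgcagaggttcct
AKR1C1 (coding span chr10:5005637-5019931, plus strand): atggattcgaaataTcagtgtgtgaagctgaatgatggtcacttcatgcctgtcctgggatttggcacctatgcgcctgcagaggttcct
AKR1C3 (coding span chr10:5136637-5149692, plus strand): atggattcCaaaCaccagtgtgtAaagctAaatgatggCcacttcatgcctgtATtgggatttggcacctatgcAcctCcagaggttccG
Within these bases AKR1C1 differed from AKR1C2 at 1 position and AKR1C3 at 10 positions. The sources used here do not give how reads that match several genes were counted, so the values of the AKR1C genes are uncertain to that extent.

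AKR1C1, which encodes an enzyme that inactivates progesterone, and AKR1C3, which encodes an enzyme that makes testosterone and prostaglandin F, carry a further limit. The table gives each gene a TMM value and a TPM value, and in every library exactly 1 of the pair held reads while the other stood at its floor. AKR1C1, which the table places on the patch contig HG871_PATCH, held its reads in the TMM value in 2 libraries and in the TPM value in 16. AKR1C3 held them in the TMM value in 11 libraries and in the TPM value in 7. The table has 85 genes of this kind, and AKR1C2 was not among them. No test of AKR1C1 or AKR1C3 is therefore given, and libraries are compared within the value that held their reads, except where joined values are named.

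In the TPM value, AKR1C1 was at 0.146, 0.109 and 0.127 in Ad-GFP cells at 12 h, at 0.129, 0.112 and 0.145 at 24 h, and at 0.252, 0.217 and 0.26 at 48 h. Ad-TEADi cells had 0.151 and 0.138 at 12 h, 0.419 and 0.355 at 24 h, and 0.785, 0.759 and 0.83 at 48 h. At 24 and 48 h every Ad-TEADi library with a value was above every control library, while at 12 h the groups overlapped. On the TMM values, over 3 against 3 libraries, 17.7% of all tested genes were higher without overlap at 24 h and 26.8% at 48 h. AKR1C1 had only 2 Ad-TEADi libraries in its TPM value at 24 h. The ratio of means was 1.13, 3.01 and 3.25 at 12, 24 and 48 h. The 2 libraries with a TMM value were both Ad-TEADi, replicate 2 at 12 h with 13.2 CPM and replicate 1 at 24 h with 25.0 CPM.

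AKR1C3 with Ad-GFP had TMM values of 2.37 and 3.14 CPM at 12 h, 5.2 and 4.51 CPM at 24 h, and 8.19 and 9.22 CPM at 48 h. With Ad-TEADi it had 4.48 CPM in 1 library at 12 h, 9.14 and 8.63 CPM at 24 h, and 22.3 and 26.1 CPM at 48 h. The ratio of means was 1.62, 1.83 and 2.78, and in the TPM value, from the remaining libraries, it was 1.39, 1.68 and 2.45. At each time the Ad-TEADi libraries lay above the control libraries in both values. Each of these comparisons had only 1 or 2 libraries a side, and the TPM value at 24 and 48 h had 1 against 1. A separation of so few libraries is a description only. When the TMM and TPM values of a gene were joined onto a common scale, a step chosen after the data were seen, the ratios at 48 h were 3.14 for AKR1C1 and 2.62 for AKR1C3, both below the 5.22 of AKR1C2. The 3 genes were thus higher with Ad-TEADi at 24 and 48 h, by unequal amounts, and all 3 were also higher at 48 h than at 12 h in the control cells.

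**Figure D1:**
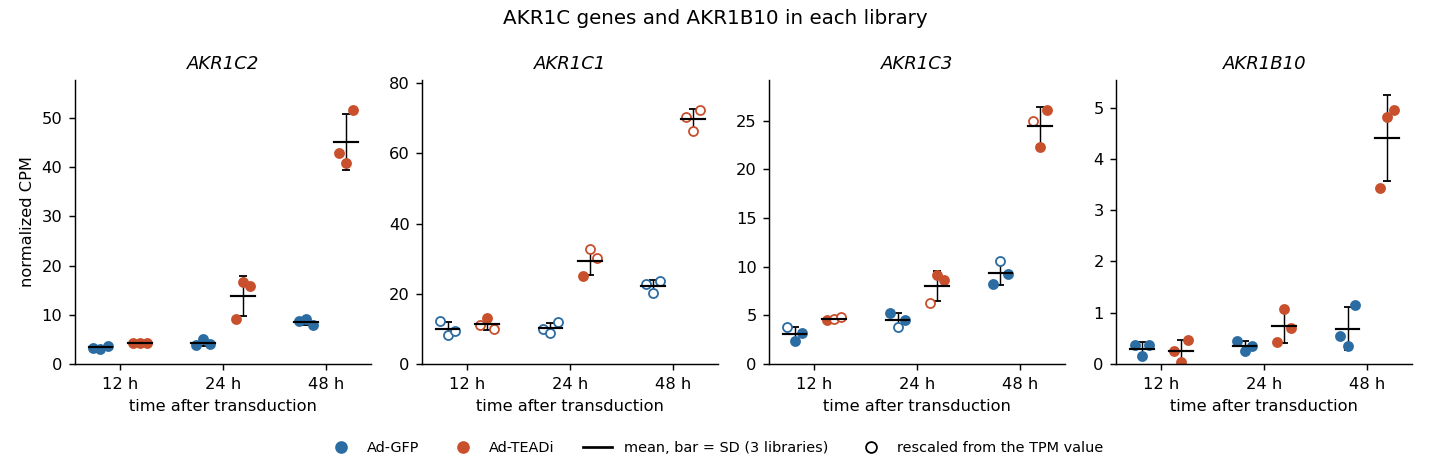
Level of AKR1C2, AKR1C1, AKR1C3 and AKR1B10 (vertical axis, normalized CPM) against time after transduction (horizontal axis) in Ad-GFP (blue) and Ad-TEADi (orange) libraries, with lines for group means and bars for the SD of 3 libraries; open points were rescaled from the TPM value. AKR1C2 reached 40.8 to 51.6 CPM with Ad-TEADi at 48 h, against 7.95 to 9.24 CPM with Ad-GFP.

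AKR1B10, an aldo-keto reductase that clears reactive aldehydes and retinal (chr7:134212319-134226164, GRCh37), was near the limit of detection for most of the course. Its control libraries had 0.38, 0.15 and 0.363 CPM at 12 h, 0.451, 0.257 and 0.342 CPM at 24 h, and 0.556, 0.346 and 1.16 CPM at 48 h. The Ad-TEADi libraries had 0.258, 0.0491 and 0.471 CPM at 12 h, 0.434, 1.08 and 0.711 CPM at 24 h, and 3.44, 4.82 and 4.95 CPM at 48 h. The groups overlapped at 12 and 24 h and were apart at 48 h, when Ad-TEADi libraries held 65.8 to 108 reads of the gene and Ad-GFP libraries 7 to 25. The ratio of mean CPM at 48 h was 6.42, a description only, since the gene passed the filter on low values through that group. AKR1B15, its close neighbour in sequence, was lower, with 1.77 ± 0.44 CPM (SD, n = 3) in Ad-TEADi at 48 h and 0.0609 ± 0.025 CPM in the control. Reads can be shared between the pair. These values too are a description only, since AKR1B15 met that filter through the same group. AKR1B1, the aldose reductase of the polyol pathway, is more abundant and rose at 48 h from 71.8 ± 2.9 to 122 ± 15 CPM, a log2 change of 0.76 ± 0.09 (adjusted p = 4.7e-07). AKR1A1, the aldehyde reductase, differed by -0.39 ± 0.07 (adjusted p = 1.2e-05), which is below the fold limit.

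The remaining 6 members had reads in every library. Their values were not the ones that chose the list, although the list was drawn up with earlier results of these data known. NQO1 and the glutathione gene GCLM stood highest among their changes at 12 h, but none of the 6 passed the test then. NQO1, a quinone reductase at chr16:69740899-69760571, had 136, 124 and 128 CPM with Ad-GFP and 161, 157 and 142 CPM with Ad-TEADi. Its groups did not overlap, and the difference of 0.24 ± 0.05 reached an adjusted p of 0.023 while staying below the fold limit. GCLM, the modifier subunit of the enzyme that makes the first bond of glutathione (chr1:94350755-94375012), had 48.9, 48 and 47.9 CPM with Ad-GFP and 60.6, 60.4 and 51.8 CPM with Ad-TEADi. This difference of 0.25 ± 0.07 also came without overlap and had an adjusted p of 0.078. Across all tested genes 0.0447% passed the test at 12 h, 0.559% were higher by the adjusted p alone, and 10.9% had Ad-TEADi libraries above the controls without overlap. At an unadjusted p under 0.05, 2 of the 6 members and 2436 of all tested genes differed at 12 h, and with voom weights the count of members that passed was again 0. The other 4 members lay between -0.05 and 0.08, with adjusted p from 0.46 to 0.91.

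At 24 h TXNRD1 fell, and no member of the 6 rose. TXNRD1 encodes the cytosolic thioredoxin reductase (chr12:104609557-104744085), which keeps thioredoxin reduced. It had 413, 412 and 397 CPM in the Ad-GFP libraries at 24 h and 296, 251 and 255 CPM in the Ad-TEADi libraries. Ad-TEADi replicate 1 again lay nearest to the controls, but the groups were far apart. The change was a fall of 1.53-fold, -0.61 ± 0.05 on the log2 scale (adjusted p = 1.8e-10), where 0.626% of all tested genes passed the test in this direction and 16.4% had Ad-TEADi libraries below the controls without overlap. It sits at the fold limit: without Ad-TEADi replicate 2 or replicate 3 it was -0.57 and -0.58, short of that limit, with adjusted p of 1.2e-08 and 1.5e-08, and on the TPM values with a pseudocount of 1 it was -0.44. The control libraries had themselves been lower at 12 h, with 303, 313 and 303 CPM, while Ad-TEADi cells had 307, 293 and 287 CPM at 12 h. GCLM was at 40.8, 45.2 and 40.7 CPM with Ad-GFP and at 44.5, 53.4 and 49.2 CPM with Ad-TEADi, overlapping by the margin of a single library, with a difference of 0.21 ± 0.07 (adjusted p = 0.047) below the fold limit. SRXN1 had 75.3, 79.3 and 77.8 CPM against 84.6, 85.6 and 85.1 CPM, without overlap as in 17.7% of all tested genes, but its difference of 0.13 ± 0.05 had an adjusted p of 0.061. NQO1, HMOX1 and GCLC differed by 0.09, -0.08 and 0.07 (adjusted p from 0.25 to 0.66).

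At 48 h the members parted, since HMOX1 rose, TXNRD1 fell further, and the other 4 stayed below the fold limit. HMOX1, the inducible heme oxygenase (chr22:35776354-35790207), had 5.46, 5.58 and 5.25 CPM with Ad-GFP and 12.7, 12.0 and 12.7 CPM with Ad-TEADi. All 3 Ad-TEADi libraries were well above the controls, as 26.8% of all tested genes were without overlap, and the change was 1.06 ± 0.11 (2.09-fold, adjusted p = 3.4e-10), beside 6.27% of all tested genes that rose. On the TPM values with a pseudocount of 1 it was 0.44, short of the fold limit. With a pseudocount of 0.1, a setting chosen after the data were seen, it was 1.05 on those values (adjusted p = 1.4e-07). TXNRD1 had 320, 285 and 296 CPM with Ad-GFP and 121, 128 and 123 CPM with Ad-TEADi, the lowest values it took in any group. It fell 2.41-fold, by 1.27 ± 0.05 on the log2 scale (adjusted p = 1.6e-19), beside 6.3% of all tested genes that fell. Of the 6 members 1 therefore rose, 1 fell and 4 did not pass, and their median change was -0.14, where the median of all tested genes was -0.03.

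GCLC, the catalytic subunit of glutamate-cysteine ligase (chr6:53362139-53481768), had 100.4, 90.6 and 97.3 CPM in the controls at 48 h and 72.1, 80.5 and 82.1 CPM with Ad-TEADi. SRXN1, sulfiredoxin, which repairs overoxidized peroxiredoxins (chr20:627259-633844), had 97.5, 96.9 and 98.3 CPM against 82.8, 78.8 and 74.7 CPM. Both were lower with Ad-TEADi without overlap, by -0.29 ± 0.05 (adjusted p = 3.0e-05) and -0.31 ± 0.05 (adjusted p = 4.6e-06), changes that reached the adjusted p but not 1.5-fold. By the adjusted p alone 27.8% of all tested genes were lower and 22.7% higher at 48 h, and 31.9% had Ad-TEADi libraries below the controls without overlap. NQO1 had 154, 152 and 144 CPM against 149, 146 and 156 CPM, and its difference was 0.01 with a 95% interval from -0.10 to 0.11. GCLM had 33.6, 31.1 and 26.6 CPM against 31, 31.4 and 31.9 CPM, with a difference of 0.05 and an interval from -0.10 to 0.20. For both genes the groups overlapped and the interval lay inside 1.5-fold in either direction.

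**Figure D2:**
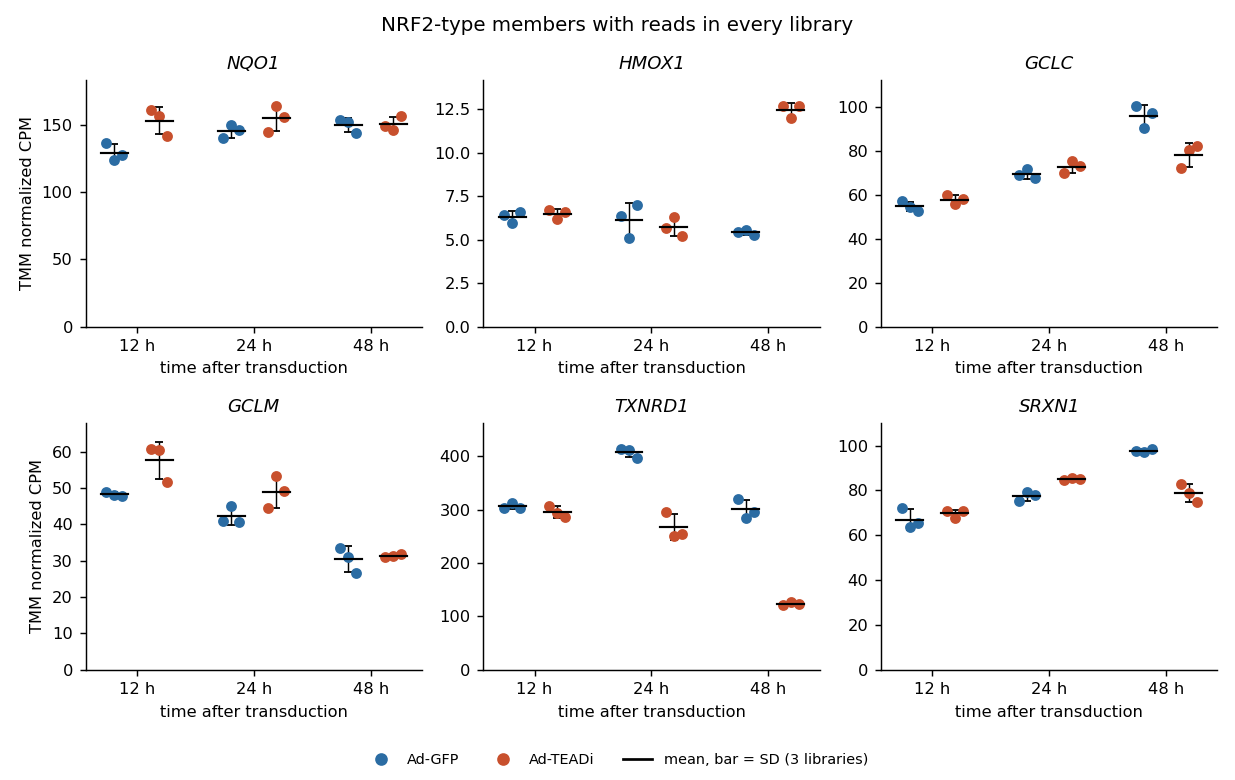
TMM normalized CPM (vertical axes, from 0) of NQO1, HMOX1, GCLC, GCLM, TXNRD1 and SRXN1 against time after transduction in Ad-GFP (blue) and Ad-TEADi (orange) libraries, with group means and the SD of 3 libraries. At 48 h TXNRD1 stood at 121 to 128 CPM with Ad-TEADi against 285 to 320 CPM with Ad-GFP, and HMOX1 at 12.0 to 12.7 CPM against 5.25 to 5.58 CPM.

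**Figure D3:**
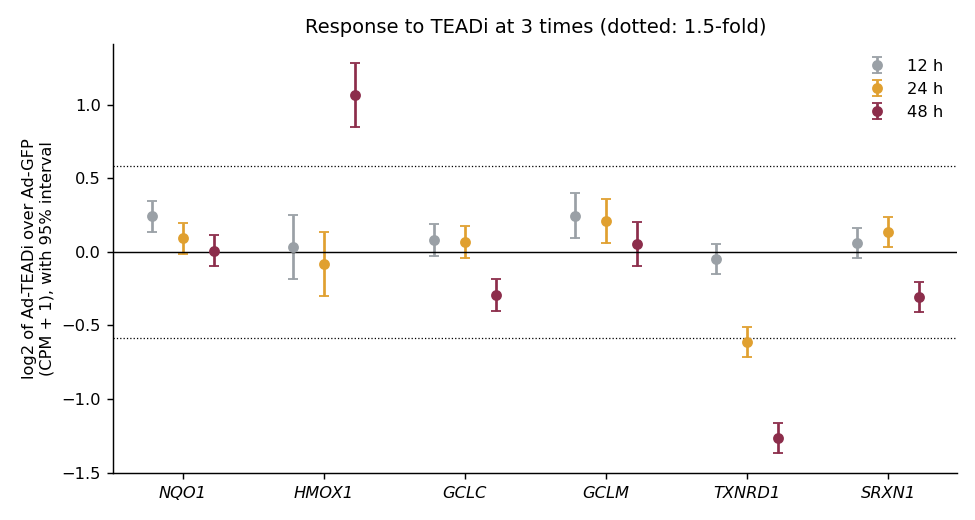
Log2 ratio of Ad-TEADi over Ad-GFP with its 95% interval (vertical axis) for the same 6 genes at 12, 24 and 48 h, with dotted lines at 1.5-fold. HMOX1 at 48 h (1.06) and TXNRD1 at 24 and 48 h (-0.61 and -1.27) lie beyond those lines.

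The responses at 24 and 48 h were then compared directly. HMOX1 had a response at 48 h that exceeded the one at 24 h by 1.15 ± 0.15 (adjusted p = 5.9e-07), and TXNRD1 fell more at 48 h, by a difference of -0.66 ± 0.07 (adjusted p = 2.2e-08). SRXN1 and GCLC went from slightly above the control at 24 h to below it at 48 h, and their differences of -0.44 ± 0.07 (adjusted p = 1.9e-05) and -0.36 ± 0.08 (adjusted p = 7.5e-04) both passed. For NQO1 the difference was -0.08 ± 0.07 (adjusted p = 0.46), and for GCLM it was -0.16 ± 0.10 (adjusted p = 0.32). Of all tested genes 7.77% had a more positive and 13% a more negative response at 48 h by this test, which has no fold limit. On the TPM values the split of such genes turned, with 60.1% of them more positive where the TMM values gave 37.4%, and there the GCLC difference no longer passed (adjusted p = 0.075 and 0.082 with pseudocounts of 1 and 0.1). With a pseudocount of 1 the TXNRD1 difference did not pass either (adjusted p = 0.0515).

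Several members changed with time in the control cells alone, so a level at 48 h has to be read beside its own control. GCLC increased in Ad-GFP from 57, 54.5 and 52.7 CPM at 12 h through 69, 71.6 and 67.6 CPM at 24 h to its values at 48 h. That rise of 0.80 ± 0.05 between 12 and 48 h (adjusted p = 5.8e-14) compares with 0.43 ± 0.05 (adjusted p = 2.5e-08) in Ad-TEADi cells, which had 59.7, 55.6 and 58.2 CPM at 12 h and 69.9, 75.2 and 73 CPM at 24 h. GCLM fell with time under both viruses, by 0.65 ± 0.07 (adjusted p = 8.7e-09) with Ad-GFP and by 0.85 ± 0.07 (adjusted p = 1.4e-11) with Ad-TEADi. In the controls both subunits of the same enzyme thus went in opposite directions over the course, although on the TPM values with a pseudocount of 0.1 GCLC changed by 0.50, short of the fold limit. Without Ad-GFP replicate 3 at 48 h the GCLM fall in the controls was -0.56, short of the fold limit.

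SRXN1 in the controls had 72.2, 63.5 and 65.3 CPM at 12 h and the values given above at 48 h, a change of 0.54 ± 0.05 (adjusted p = 9.0e-11) just under the fold limit, which it passed at 0.59 when Ad-GFP replicate 1 at 12 h was left out. With Ad-TEADi it had 70.7, 67.9 and 70.7 CPM at 12 h. NQO1 with Ad-GFP had 140, 150 and 146 CPM at 24 h and changed by 0.21 ± 0.05 from 12 to 48 h on the TMM values and by -0.01 on the TPM values, and with Ad-TEADi it had 145, 164 and 156 CPM at 24 h. HMOX1 stayed between 5.1 and 7.02 CPM in all libraries other than Ad-TEADi at 48 h, a range that takes in the 6.7, 6.18 and 6.59 CPM of Ad-TEADi at 12 h and the 5.69, 6.28 and 5.22 CPM at 24 h. Its change in Ad-TEADi cells from 12 to 48 h was 0.84 ± 0.11 (adjusted p = 1.9e-08), and TXNRD1 changed there by -1.25 ± 0.05 (adjusted p = 2.4e-20), as against -0.03 ± 0.05 (adjusted p = 0.62) in the controls. Over this interval 8.34% of all tested genes rose and 5.25% fell with Ad-GFP, and 14.3% rose and 11.9% fell with Ad-TEADi. By the adjusted p alone 31.1% were higher with Ad-GFP and 35% with Ad-TEADi. The TPM values shift the median of all genes between 12 and 48 h to -0.13 with Ad-GFP and -0.17 with Ad-TEADi, where the TMM values put it at 0.03 and 0.01. The share of genes passing that rose was then 27.2% with Ad-GFP, where the TMM values gave 61.3%, and 26.6% with Ad-TEADi, where the TMM values gave 54.5%. Relative to the median of all genes on the TPM values, GCLC still changed by 0.63 and GCLM by -0.71 in the controls.

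NRF2 acts through the antioxidant response element, whose core, TGACNNNGC, was looked for on both strands of the RefSeq promoters of GRCh38.p14, from 250 bases before to 50 bases after a gene's start. Of the 10 members 8 had such promoters, 10 in all, and AKR1B10 and HMOX1 were not analysed here. The core occurred in 13.3% of all 35116 promoters of this length. Of the 10 member promoters 3 held it, too few to read against that share. They belonged to 2 of the 8 members, GCLM and TXNRD1, and not to AKR1C1, AKR1C2, AKR1C3, NQO1, GCLC or SRXN1. The stretches of 115 bases around the matches are shown because they let the matches be read in place, in capitals.
GCLM (chr1:93909441-93909555, minus strand): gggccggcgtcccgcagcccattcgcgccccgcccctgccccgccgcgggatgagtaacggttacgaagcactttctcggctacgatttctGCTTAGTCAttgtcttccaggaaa
TXNRD1, upstream promoter (chr12:104215654-104215768, plus strand): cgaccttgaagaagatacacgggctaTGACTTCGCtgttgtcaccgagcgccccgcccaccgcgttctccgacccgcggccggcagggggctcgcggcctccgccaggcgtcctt
TXNRD1, downstream promoter (chr12:104286907-104287021, plus strand): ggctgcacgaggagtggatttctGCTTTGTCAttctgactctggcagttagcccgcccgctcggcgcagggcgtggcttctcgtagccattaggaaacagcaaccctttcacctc
The GCLM match began 34 bases before the start and read TGACTAAGC on the other strand. The matches of TXNRD1 began 99 and 8 bases before its upstream start, as TGACTTCGC and, on the other strand and outside the stretch shown, TGACGGAGC, and 102 bases before its downstream start, as TGACAAAGC on the other strand. The core can overlap an AP-1 motif, TGACTCA, but 0 of the 4 matches did. These are matches of letters in a short window and say nothing of binding.

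None of the 9 NRF2 regulators tested passed the test between the viruses at 12, 24 or 48 h. Of all tested genes 0.0447% passed at 12 h, 1.16% rose and 0.626% fell at 24 h, and 6.27% rose and 6.3% fell at 48 h. By the adjusted p alone, 3 of the 9 were higher and 3 lower at 48 h, beside 22.7% and 27.8% of all tested genes. NFE2L2 had 163 ± 2.6 CPM with Ad-GFP and 138 ± 4.9 CPM with Ad-TEADi at 48 h (SD, n = 3), a difference of -0.24 ± 0.04 (adjusted p = 9.6e-06) below the fold limit. KEAP1, its adaptor to the ubiquitin ligase, had 49.2 ± 1.1 and 50.4 ± 3.5 CPM (0.03 ± 0.06, adjusted p = 0.66). BACH1, the repressor, had 109 ± 3.2 and 130 ± 4.2 CPM (0.25 ± 0.06, adjusted p = 3.7e-04). Among the small MAF partners, MAFK had 32.7 ± 0.73 and 23.3 ± 2.7 CPM (-0.48 ± 0.08, adjusted p = 1.0e-05) and MAFF 50 ± 3 and 41.7 ± 4.4 CPM (-0.26 ± 0.07, adjusted p = 0.0023). MAFG had 36.5 ± 1.6 and 35.6 ± 1.7 CPM. These are transcript levels, and KEAP1 acts on the NRF2 protein.

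A wider list of 62 other genes of the pathway, 59 of them in the table and tested, was counted in the same way. At 12 h none of the 59 passed the test, with 12 at an unadjusted p under 0.05 and 0 with voom weights. Of all 13417 tested genes 0.0447% passed at 12 h and 2436 were at an unadjusted p under 0.05. At 24 h 1 rose and 0 fell, where 1.16% of all tested genes rose. At 48 h 8 rose and 2 fell, where 6.27% of all tested genes rose and 6.3% fell, and the median change was 0.02. By the adjusted p alone, 16 of them were higher and 2 lower at 24 h, where 9.91% of all tested genes were higher and 8.03% lower. At 48 h 22 were higher and 17 lower, where 22.7% of all tested genes were higher and 27.8% lower. The median at 24 h was 0.09, with 0.00 for all tested genes. Without Ad-GFP replicate 1 or Ad-TEADi replicate 1 at 24 h, 2 of the 59 passed instead of 1.

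GPX2, a glutathione peroxidase of epithelia, was the gene that passed at 24 h, rising from 4.46 ± 0.54 to 8.21 ± 1.2 CPM (0.75 ± 0.12, adjusted p = 2.5e-05), and it stayed high at 48 h (0.94 ± 0.12, adjusted p = 7.4e-08). Also on the glutathione list, GSTA4, a transferase for lipid aldehydes, rose at 48 h from 5.9 ± 0.6 to 14.1 ± 1.9 CPM (1.13 ± 0.14, adjusted p = 2.0e-08). GSTM2 rose at low levels by 0.80 ± 0.17 (adjusted p = 2.1e-04), and its reads can be shared with its close relatives. SLC7A11, the cystine importer that feeds glutathione synthesis, fell from 238 ± 8.3 to 135 ± 7.1 CPM (-0.81 ± 0.07, adjusted p = 2.9e-09). The list thus held 3 rises and 1 fall among 15 tested genes at 48 h, beside 6.27% and 6.3% of all tested genes, with glutathione reductase, GSR, lower by 0.52 ± 0.06 (adjusted p = 3.3e-08) short of the fold limit.

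In heme and iron handling, 2 of 8 tested genes rose and 1 fell at 48 h, beside 6.27% and 6.3% of all tested genes. The rises were FTH1, the ferritin heavy chain that stores iron, from 1659.9 ± 52 to 2764 ± 83 CPM (0.74 ± 0.06, adjusted p = 8.3e-09), and ABCB6, a porphyrin transporter (0.65 ± 0.10, adjusted p = 3.1e-06). SLC48A1, which exports heme from lysosomes to the cytosol, fell from 13.9 ± 0.37 to 5.72 ± 0.25 CPM (-1.15 ± 0.12, adjusted p = 1.1e-09). HMOX1, whose product releases the iron of heme, and FTH1 were both higher at 48 h. At 24 h HMOX1 differed by -0.08 ± 0.11 (adjusted p = 0.66). FTH1 had differed already at 24 h (0.31 ± 0.06, adjusted p = 0.0013), below the fold limit, as had ABCB6 (0.45 ± 0.10) and SLC48A1 (-0.45 ± 0.12). A link between HMOX1 and these genes was not tested. FTH1 has processed copies in the genome to which its reads can be assigned.

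Of 9 thioredoxin and peroxiredoxin genes TXNIP, an inhibitor of thioredoxin, was the only one to pass at 48 h, with 63.8 ± 12 CPM in the controls and 155 ± 12 CPM with Ad-TEADi (1.28 ± 0.13, adjusted p = 2.3e-06). The table places it on a patch contig, so its copy is uncertain. None of 6 genes for NADPH supply passed at 48 h. Isocitrate dehydrogenase, IDH1, and malic enzyme, ME1, were higher by 0.32 ± 0.04 and 0.24 ± 0.05, and transaldolase, TALDO1, differed by -0.32 ± 0.05, all below the fold limit. Of 12 other NRF2 targets UGT1A6, a glucuronosyltransferase that shares exons with its neighbours, and PIR, pirin, rose by 0.75 ± 0.12 (adjusted p = 2.1e-06) and 0.65 ± 0.12 (adjusted p = 3.5e-05). Outside the 59 genes, SOD2, the mitochondrial superoxide dismutase, rose from 159 ± 1.7 to 299.6 ± 12 CPM (0.91 ± 0.05, adjusted p = 1.9e-15), and CAT, catalase, from 33.3 ± 1.1 to 53.5 ± 1.8 CPM (0.67 ± 0.06, adjusted p = 6.2e-11). They were 2 of the 4 superoxide and peroxide enzymes tested. All these counts stand beside 6.27% of all tested genes that rose and 6.3% that fell at 48 h.

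**Figure D4:**
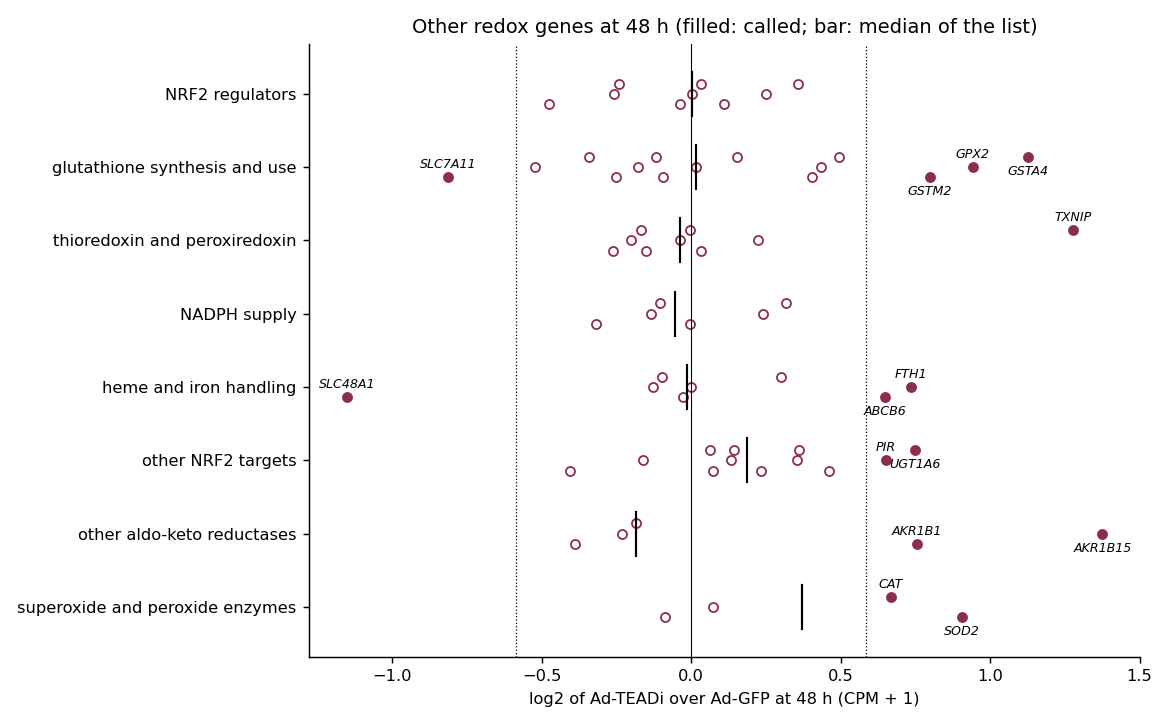
Log2 ratio of Ad-TEADi over Ad-GFP at 48 h (horizontal axis) for each tested gene of 8 lists (vertical axis), with filled points for genes that passed the test, bars for the median of each list and dotted lines at 1.5-fold. Of the genes that passed, SLC7A11 (-0.81) and SLC48A1 (-1.15) lie to the left and the others to the right. AKR1B15 is filled among them, but it met the filter on low values only through Ad-TEADi at 48 h and supports nothing.

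Markers of other cell types moved at 48 h as well. The summed level of the 6 keratinocyte markers at 48 h was 33450 to 34190 CPM with Ad-GFP and 42070 to 44510 CPM with Ad-TEADi. None of the 6 passed the test at 48 h. By the adjusted p alone 4 were higher and 1 lower, beside 22.7% and 27.8% of all tested genes. The lower one was ITGB4, at 2487 ± 66 CPM with Ad-GFP and 2143 ± 159 CPM with Ad-TEADi (SD, n = 3). For the 4 of 6 fibroblast markers in the table it was 19.5 to 23.8 CPM in Ad-GFP libraries and 48.2 to 50.4 CPM in Ad-TEADi libraries at 48 h, and 36.4 to 43.1 CPM over all libraries at 12 h. DCN, the gene of decorin, was at 0.153 ± 0.024 CPM with Ad-GFP and 8.34 ± 1.8 CPM with Ad-TEADi, a description only, since it passed the filter on low values through that group. COL1A1 rose by 0.92 ± 0.07 (adjusted p = 9.2e-13), while COL1A2 differed by 0.14 ± 0.15 (adjusted p = 0.45) and COL3A1 reached at most 14 reads in any library. PMEL, the only melanocyte marker in the table, reached at most 14 reads. Of the immune and endothelial markers CD68, which other cells express in lysosomes, was 0.49 ± 0.11 higher at 48 h (adjusted p = 7.8e-04), and VWF reached at most 15 reads. The part of these markers in the higher levels of HMOX1 and the AKR1C genes was not tested.

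Per kilobase of the GENCODE canonical transcript, the members covered a wide range of levels. In Ad-GFP cells at 12 h the order was TXNRD1 with 79.4 ± 1.4 CPM per kb, NQO1 with 51.3 ± 2.5, SRXN1 with 26.5 ± 1.8, GCLC with 14.5 ± 0.58, GCLM with 9.88 ± 0.11 and HMOX1 with 4.07 ± 0.20 CPM per kb (SD, n = 3). Below them came the joined AKR1C3 with 2.62 ± 0.60, the joined AKR1C1 with 1.53 ± 0.30, AKR1C2 with 1.05 ± 0.10 and AKR1B10 with 0.18 ± 0.079 CPM per kb. No neighbours in this order overlapped. In Ad-TEADi cells at 48 h NQO1 led with 59.7 ± 2.1 CPM per kb, followed by TXNRD1 with 32.1 ± 0.83 and SRXN1 with 31.2 ± 1.6, whose libraries overlapped. GCLC with 20.7 ± 1.4 and the joined AKR1C3 with 20.6 ± 1.6 CPM per kb also overlapped, and AKR1C2 with 14.02 ± 1.8 and the joined AKR1C1 with 10.6 ± 0.46 CPM per kb now stood above HMOX1 with 8.01 ± 0.26 and GCLM with 6.44 ± 0.094 CPM per kb. The place of AKR1C1 depends on the length taken, since its canonical transcript has 6543 bases and that of AKR1C3 has 1186.

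Across the 18 libraries the log2 level of AKR1C2 had a Pearson correlation of 0.92 with AKR1B10, 0.73 with HMOX1, 0.54 with GCLC, 0.46 with NQO1, 0.38 with SRXN1, -0.56 with GCLM and -0.90 with TXNRD1. These are descriptions, as all points share the same viruses and times. By the rule for genes with the most similar pattern, among tested genes with a mean of at least 5 CPM, the closest were CA12 (0.993), a carbonic anhydrase, GJB2 (0.989), a gap junction gene, MTSS1, LRP1, a receptor of the LDL receptor family, and CLCA2, the last 3 at 0.988. CA12 went from 87.8 CPM in the controls to 476 CPM in Ad-TEADi cells at 48 h. None of these 5 genes is on the wider NRF2 list. That list holds only 59 of the 13417 tested genes and the members were left out of the ranking, so nothing is drawn from this.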

How the data were processed

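Polyadenylated RNA of 18 libraries was sequenced. Trimmomatic 0.36, STAR 2.5.1, hg19 and Partek 8.0.19.0819 are named in the processing notes of the submitters. Strandedness was not stated. The deposited table by the authors holds TMM normalized CPM, to which they had added 1 read before scaling, and TPM. The TPM values deposited by the authors proved to use each gene's genomic span (100% of 9216 genes within 5%), so levels of different genes were compared per kilobase of transcript instead. The deposited p-values, q-values, ratios, least squares means and signed fold changes (a score in which a fall is negative) hold the authors' own comparisons at each time and were not used. Estimated reads were the value over the library's lowest value, less 1. Between 73.6% and 76.5% of low values lay within 0.01 of a whole number, so no count model was fitted.

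Genes with at least 1 CPM in 3 libraries were tested on log2(CPM + 1) with limma 3.58.1 (R 4.3.3), with 6 group means, trend and robust moderation and Benjamini-Hochberg adjustment for each of 6 comparisons. On simulated data of 13417 genes, a change of 2-fold was recovered for 95% of genes at 24 h and 98% at 48 h. One of 1.5-fold lies at the fold limit and was recovered for 41% and 36%, or for 85% and 79% by the adjusted p alone. The simulation fixed the spread of the counts and fitted only the groups compared, so these shares need not hold for the fit used. Members and lists were chosen with earlier results of these data known. Named were all members, the NRF2 regulators, list genes that passed a test and otherwise up to 4 with the smallest adjusted p at 48 h, and the 5 genes most correlated with AKR1C2. List genes that passed only over time or in the difference of responses are mostly not printed, and 1 gene the rule names is not reported here. Alternatives varied the pseudocount, filter, scaling, variance model, libraries, uncertain copies, a replicate block and each library left out. Chosen after the data were seen were TPM with a pseudocount of 0.1 and the joining of the TMM and TPM values of AKR1C1 and AKR1C3. Promoters are from RefSeq, and transcripts from GENCODE on GRCh37.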

Additional observations from a re-analysis of the deposited data

Results flagged for a closer look

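The response to TEADi differed between 24 and 48 h, by the test of the difference itself, for 4 of the 6 members with reads in every library, where 7.77% of all tested genes had a more positive and 13% a more negative response at 48 h. On TPM with a pseudocount of 1 the differences of GCLC (adjusted p = 0.075) and TXNRD1 (adjusted p = 0.0515) did not pass, which left 2 of the 6. The response of HMOX1 at 48 h exceeded that at 24 h by 1.15 on the log2 scale, since the gene differed by -0.08 at 24 h and by 1.06 at 48 h. For TXNRD1 the difference was -0.66, from -0.61 at 24 h to -1.27 at 48 h. Its controls stood at 303 to 313 CPM at 12 h, 397 to 413 CPM at 24 h and 285 to 320 CPM at 48 h. Its Ad-TEADi libraries had 287 to 307 CPM at 12 h, 251 to 296 CPM at 24 h and 121 to 128 CPM at 48 h. The difference at 24 h thus came with higher controls as well as lower Ad-TEADi values. For SRXN1 it was -0.44, from 0.13 at 24 h to -0.31 at 48 h. For GCLC it was -0.36, from 0.07 at 24 h to -0.29 at 48 h. For both SRXN1 and GCLC the controls stood higher at 48 h than at 24 h, at 96.9 to 98.3 CPM against 75.3 to 79.3 CPM for SRXN1 and at 90.6 to 100.4 CPM against 67.6 to 71.6 CPM for GCLC. The 24 h and 48 h groups were separate libraries, so their controls were not shared. No cause was tested for any of these differences.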

How the results depend on the processing

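The counts here are those over the 9 members other than AKR1C2, which include AKR1B10 and the unsteady TMM value of AKR1C3. AKR1B10, which met the filter on low values through Ad-TEADi at 48 h and supports nothing, is 1 of those counted at 48 h, in the difference of responses and in Ad-TEADi over time, and without it the counts are 2, 4 and 3. At 24 h 1 of them passed, and 0 did on TPM with a pseudocount of 1, or without Ad-TEADi replicate 2 or 3 (range 0 to 1 with a library left out). At 48 h 3 were counted (3 to 3), but 1 with a mean of at least 10 CPM required, a filter that removes low genes, and 1 on TPM with a pseudocount of 1. For the difference of responses 5 were counted (5 to 5), and 3 with that filter or on TPM with a pseudocount of 1. For Ad-GFP over time 2 passed (1 to 3), with 0 and 1 on TPM with pseudocounts of 1 and 0.1. For Ad-TEADi over time 4 were counted (4 to 5), and 2 with that filter or on TPM with a pseudocount of 1. In the wider list 1 gene passed at 24 h (1 to 2), against 2 with a pseudocount of 0.1, 0 with a pseudocount of 5, with the filter on the mean or on TPM with a pseudocount of 1, and 3 with voom weights. At 48 h 10 passed (9 to 10), against 5 with the filter on the mean and 3 on TPM with a pseudocount of 1. At 12 h the counts were 0 (0 to 0) under every alternative. Over the 6 other members 629 values under alternatives kept their status, whether passing or not, 12 lost a call and 1 gained one. None of the called ones changed sign. Many of the 629 belong to results that had not passed in the first place, so this number does not measure how firm the calls are. Those lost on TPM with a pseudocount of 1 include HMOX1 at 48 h (0.44, short of the fold limit), TXNRD1 at 24 h (-0.44) and its difference of responses (adjusted p = 0.0515). Since deposited TPM values are small, a pseudocount of 1 shrinks changes on that scale. Same-numbered libraries had correlations of their deviations between -0.11 and 0.14, and the main fit used no pairing. Such correlations cannot decide whether same-numbered libraries shared a culture or a batch. A replicate block changed no count, with 1 of the 9 members at 24 h, 3 at 48 h and 0 at 12 h. Low values limit AKR1B10, with 0 to 25 reads outside Ad-TEADi at 48 h.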
